A study of Mus musculus with 16 samples.

Results

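The genes described here are interferon-stimulated genes whose products act against viruses inside the cell, measured in the light-damaged retina of the mouse. The list holds 38 genes named by symbol, and a gene was taken from the array where a transcript cluster carried its symbol alone. That gave 35 measured genes of the 19938 genes on the array. Isg15 and Ifi47 have only a cluster that carries another symbol as well, and Ifi44 has no cluster under its symbol, so those 3 have no value here.

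Male albino Balb/cJ mice, 10 weeks old, were exposed to light of 10000 lux for 18 h and killed 4 h afterwards (4 mice), or were kept on the 12-h light cycle as controls (4 mice). From each mouse the neurosensory retina (NSR, the layers of photoreceptors, other neurons and glia) and the retinal pigment epithelium (RPE, the layer behind the photoreceptors, unpigmented in this albino strain) were hybridised separately to Affymetrix Mouse Gene 1.0 ST arrays. This gives 4 groups of 4 arrays: NSR control, NSR light, RPE control and RPE light. No group carries a genetic change, and the light-exposed mice differ from the controls in the exposure alone as far as the labels state. Every value is a log2 expression level from the RMA method (background correction, quantile normalization and probe summary), so a difference of 1 is 2-fold. The array gives no detection call, and a group mean below 5.63, the value that cuts off the dimmest 25% of genes, is called dim below. The markers go with the labels: in control mice 11 of 12 RPE marker genes were higher in the RPE and 10 of 10 rod genes lower. Of the RPE arrays 2 stand apart in markers of other eye tissues, RPE light 2 in cornea and ciliary body (list median 9.40, elsewhere 6.30 to 7.05) and RPE control 2 in lens (7.37, elsewhere 6.40 to 6.62). The rod list ran from 7.32 to 8.49 over the RPE arrays, with RPE light 1 the highest and RPE control 1 and 2 close to it at 8.38 and 8.32.

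Interferons are secreted proteins that bind receptors on the cell surface and activate the kinases JAK1 and TYK2. These kinases phosphorylate STAT2, which acts in a complex with IRF9 at the interferon-stimulated response element (ISRE) in the promoters of target genes. Interferon gamma acts mainly through another promoter element, the gamma-activated site (GAS). The products of these target genes bind or degrade foreign RNA, starve viral polymerases of nucleotides, block fusion or release of virions, and attach the ubiquitin-like protein ISG15 or ADP-ribose to other proteins. Many of these genes also have a basal level in cells that meet no virus.

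Light exposure went with higher levels of most of these genes in the NSR, and of fewer and by less in the RPE. In the NSR 28 of the 35 genes rose and 0 fell (limma; p adjusted by Benjamini and Hochberg's method across the whole array and called under 0.05), where 8.87% of all genes rose and 6.24% fell. In the RPE 12 of the 35 rose and 0 fell, against 9.08% and 8.53% of all genes, and 11 rose when the 2 RPE arrays that stand apart were left out, 10 when RPE light 1 was left out as well. The median difference over the 35 genes was 0.86 on the log2 scale in the NSR, beside -0.02 over all genes, and 0.22 in the RPE, beside -0.01. In the NSR 17 of the genes rose by at least 2-fold, as did 1.14% of all genes. In the RPE only Ifit1 and Ifitm3 reached 2-fold, a size that 0.762% of all genes reached. The list was chosen with earlier results of these data known, so its counts beside the shares of all genes are descriptive. The median level of the 35 genes was 6.23 to 6.30 on the 4 NSR control arrays and 7.29 to 7.68 on the 4 NSR light arrays. On the RPE control arrays that median was already 7.17 to 7.26, and on the RPE light arrays it was 7.32 to 7.75. The groups of each tissue do not overlap in this median, and the NSR moved from below the RPE to its range. These are bulk samples, in which a change in the number of cells of a type and a change in RNA per cell cannot be told apart.

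**Figure D1:**
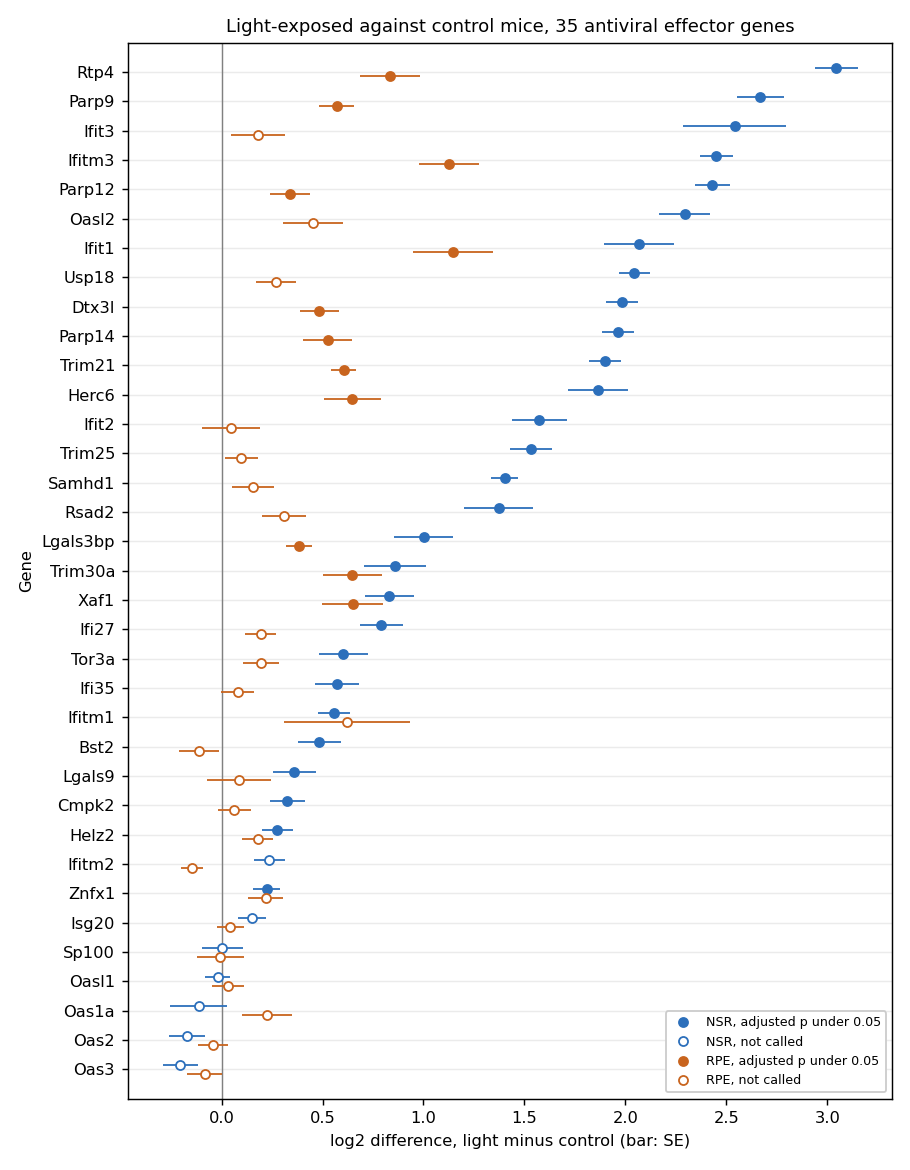
Light response of the 35 measured genes, as the log2 difference between 4 light-exposed and 4 control mice with its standard error, in the NSR (blue) and the RPE (orange), ordered by the NSR value. Filled points passed an adjusted p of 0.05; the NSR points run from -0.21 (Oas3) to 3.04 (Rtp4), and the highest RPE point is Ifit1 at 1.15.

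The promoters show which of these genes hold the letters of an ISRE close to the start. RefSeq promoters (GRCm38.p6) were matched by symbol for 28 of the 35 genes, and the 250 bases before the start were searched on both strands for the ISRE core, written GAAANNGAAA or TTTCNNTTTC on the other strand. The start is the transcript start of the promoter entry, and it can lie inside the RefSeq gene, as it does for Ifitm2, Oas1a and Oas3 among others. For Ifitm1 and Ifitm2 the whole window lies inside the gene. The counts of genes with and without a core include such windows. The core was in 9 of the 28 (32.1%), against 3.4% of the 15614 genes of the array that have a promoter entry. The 8 stretches printed here are those of genes with 1 or 2 cores that rose in the NSR (Ifit1, Ifit3, Rsad2, Bst2), of genes with a core that did not pass the test in either tissue (Oas1a, Oas3), and of genes without a core that rose in both tissues (Ifitm3, Parp12). They were chosen after the values were seen, and capitals mark the core.
Ifit1: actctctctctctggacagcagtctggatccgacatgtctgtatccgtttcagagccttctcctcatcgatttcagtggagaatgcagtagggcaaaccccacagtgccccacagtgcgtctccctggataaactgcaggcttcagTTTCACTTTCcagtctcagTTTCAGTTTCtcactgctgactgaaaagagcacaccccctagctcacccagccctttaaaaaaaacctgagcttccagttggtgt
Ifit3: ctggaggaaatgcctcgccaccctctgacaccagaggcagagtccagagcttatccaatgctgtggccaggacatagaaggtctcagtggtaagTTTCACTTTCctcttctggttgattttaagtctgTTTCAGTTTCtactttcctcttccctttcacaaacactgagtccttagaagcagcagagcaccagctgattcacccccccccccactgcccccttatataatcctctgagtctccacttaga
Rsad2: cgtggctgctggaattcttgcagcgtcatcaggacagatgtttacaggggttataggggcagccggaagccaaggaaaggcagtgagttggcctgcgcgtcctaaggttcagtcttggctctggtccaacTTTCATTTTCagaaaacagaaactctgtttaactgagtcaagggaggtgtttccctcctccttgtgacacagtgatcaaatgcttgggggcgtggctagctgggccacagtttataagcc
Bst2: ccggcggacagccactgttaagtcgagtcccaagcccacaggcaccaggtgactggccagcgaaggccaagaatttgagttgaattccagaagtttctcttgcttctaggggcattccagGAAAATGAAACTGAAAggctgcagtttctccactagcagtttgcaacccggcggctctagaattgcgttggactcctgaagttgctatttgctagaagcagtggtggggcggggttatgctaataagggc
Oas1a: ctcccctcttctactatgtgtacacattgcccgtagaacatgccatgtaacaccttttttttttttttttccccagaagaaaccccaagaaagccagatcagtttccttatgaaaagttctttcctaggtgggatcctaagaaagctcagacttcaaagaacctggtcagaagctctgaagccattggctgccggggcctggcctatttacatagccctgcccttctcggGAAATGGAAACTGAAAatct
Oas3: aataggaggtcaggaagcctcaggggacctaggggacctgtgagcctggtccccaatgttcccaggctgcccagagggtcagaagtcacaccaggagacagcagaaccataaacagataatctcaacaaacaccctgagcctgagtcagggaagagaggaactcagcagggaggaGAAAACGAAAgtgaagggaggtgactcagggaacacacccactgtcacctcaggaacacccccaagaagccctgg
Ifitm3: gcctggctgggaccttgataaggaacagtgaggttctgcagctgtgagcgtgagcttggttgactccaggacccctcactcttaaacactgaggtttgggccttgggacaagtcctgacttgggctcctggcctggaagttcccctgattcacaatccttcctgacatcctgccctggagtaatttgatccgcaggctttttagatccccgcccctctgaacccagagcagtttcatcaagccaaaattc
Parp12: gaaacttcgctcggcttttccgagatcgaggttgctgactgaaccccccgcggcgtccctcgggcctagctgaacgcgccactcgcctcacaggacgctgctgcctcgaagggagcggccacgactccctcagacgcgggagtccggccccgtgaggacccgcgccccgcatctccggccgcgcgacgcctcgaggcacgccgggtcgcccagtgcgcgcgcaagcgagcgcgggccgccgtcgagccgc
These lie at chr19:34640639-34640888 (plus strand), chr19:34583279-34583528 (plus), chr12:26456453-26456702 (minus), chr8:71537473-71537722 (minus), chr5:120907526-120907775 (minus), chr5:120777660-120777909 (minus), chr7:141010745-141010994 (minus) and chr6:39118350-39118599 (minus), each read 5′ to 3′ in the direction of its gene.

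Ifit1 and Ifit3 carry the same pair of cores in the same order. The first, TTTCACTTTC, begins 104 bases before the start of Ifit1 and 156 before that of Ifit3, and the second, TTTCAGTTTC, begins 85 and 122 bases before. The other strand of this second match, GAAACTGAAA, also stands 124 bases before the start of Bst2 and 14 before that of Oas1a. In all 27025 genes with a promoter entry, 0.233% hold these 10 letters on either strand. In Bst2 and in Oas1a the core overlaps a second one that begins 6 bases further upstream. Of the 9 genes with a core, 6 rose in the NSR and 2 in the RPE, and of the 19 without one, 16 rose in the NSR and 7 in the RPE. The median NSR difference was 0.48 with a core and 1.00 without. The GAS, searched as TTCNNNGAA, was in 5 of the 28 genes (17.9%) against 7.71% of array genes with an entry; these were Ifit2, Oas1a, Isg20, Samhd1 and Bst2, where it overlaps the core. A match describes the letters of this window and says nothing of binding.

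**Figure D2:**
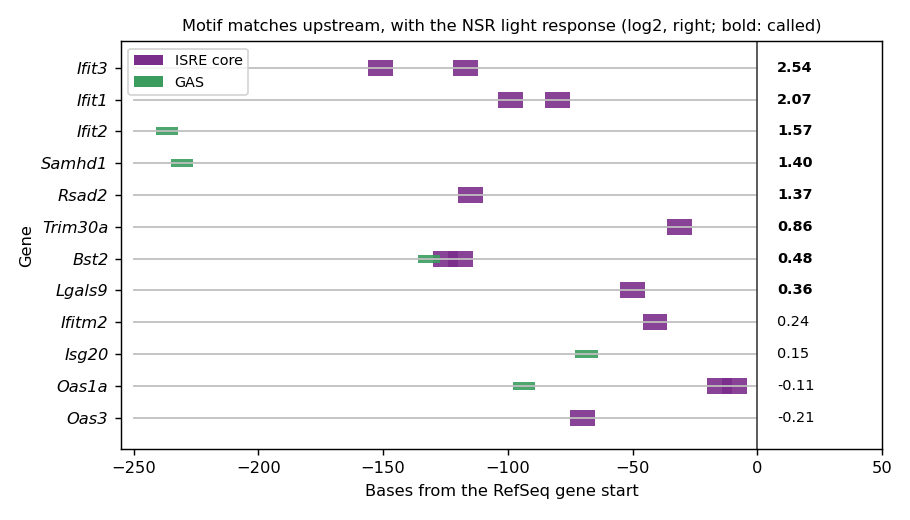
Positions of the ISRE core (purple) and GAS (green) in the 250 bases before the start of the RefSeq promoter entry, for the 12 measured genes that hold either. Genes are ordered by NSR light response, which is printed at the right as a log2 difference (bold where called). Oas1a and Oas3 hold a core and have the lowest responses of these genes, at -0.11 and -0.21.

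Of the ISG15 system, 2 genes were measured and both rose in the NSR. Usp18, which takes ISG15 off its targets and damps the interferon receptor, read 6.18, 6.14, 6.09 and 6.33 in control NSR and 8.21, 8.10, 8.36 and 8.24 after light. All light arrays lay above all controls, a difference of 2.04 ± 0.08 (SE, 4 against 4 mice; limma adjusted p = 9.7e-09). In the RPE its levels were 6.42, 6.54, 6.51 and 6.43 in controls and 6.78, 6.55, 7.03 and 6.61 after light, again without overlap, but the difference of 0.27 ± 0.10 did not pass (adjusted p = 0.11). Herc6, the ligase that attaches ISG15 in the mouse, rose by 1.86 ± 0.15 in the NSR and by 0.65 ± 0.14 in the RPE, where light mouse 4 was low at 8.00 beside 8.38 to 8.40. The RPE call of Herc6 was lost when RPE control 2 and RPE light 2 were left out (0.63, adjusted p = 0.057).

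The IFIT proteins bind foreign RNA, and all 3 measured genes rose in the NSR. Ifit3 read 6.16, 6.89, 6.70 and 5.96 on the control NSR arrays and 8.62, 8.94, 9.73 and 8.59 on the light arrays, 2.54 ± 0.25 higher (5.82-fold, adjusted p = 2.8e-05). Its RPE levels were already 9.56, 9.44, 9.37 and 9.60 in controls and 9.73, 9.27, 10.00 and 9.70 after light, which overlap, with a difference of 0.18 ± 0.13 (adjusted p = 0.45). The control RPE levels lay above all control NSR levels, and above the light NSR levels other than that of light mouse 3. Ifit1, whose promoter has the same pair of cores, was called in both tissues. It read 5.29, 5.05, 5.56 and 5.06 in control NSR, where its mean is dim, and 7.13, 7.41, 7.79 and 6.91 after light, a difference of 2.07 ± 0.17. In the RPE it rose from 5.45, 5.86, 5.71 and 6.05 to 6.79, 6.41, 7.40 and 7.05, 1.15 ± 0.20 higher and without overlap (2.21-fold, adjusted p = 0.0028). Ifit2 rose by 1.57 ± 0.14 in the NSR and differed by 0.05 ± 0.14 in the RPE (adjusted p = 0.89). Mouse Ifit3 has a close copy in its gene cluster, and probes of the family can share sequence.

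The oligoadenylate synthetases, which make the short chains that activate RNase L, had the smallest share of changed genes among the groups in the NSR. Of 8 genes of this group, which includes RNA nucleases and helicases, 3 rose in the NSR and 0 in the RPE. Oas1a, whose promoter has 2 overlapping cores, read 6.45, 6.32, 6.41 and 6.28 in control NSR and 5.73, 6.52, 6.41 and 6.34 after light, where light mouse 1 was the lowest of the 16 arrays and the groups overlapped. Its differences were -0.11 ± 0.14 in the NSR and 0.23 ± 0.12 in the RPE (adjusted p = 0.65 and 0.28). Oas2, Oas3 and Oasl1 differed by -0.21 to -0.02 in the NSR and -0.08 to 0.03 in the RPE, none of them called, and Oas3 was dim in all 4 groups. The exception in the family was Oasl2, a synthetase-like gene next to Oasl1 on the chromosome. It rose from 5.97, 6.08, 6.48 and 6.27 to 8.43, 8.60, 8.73 and 8.23 in the NSR, by 2.29 ± 0.12 (4.90-fold, adjusted p = 1.9e-07). In the RPE it read 6.46, 6.81, 6.57 and 6.36 in controls and 7.08, 7.19, 7.17 and 6.57 after light, where light mouse 4 lay within the control range, and the difference of 0.45 ± 0.15 was not called (adjusted p = 0.061). Leaving out RPE light 4 gave Oasl2 0.60 with adjusted p = 0.0053, and leaving out RPE control 2 gave 0.54 with adjusted p = 0.040. The helicases Znfx1 and Helz2 rose by 0.22 ± 0.07 and 0.28 ± 0.08 in the NSR. The call of Znfx1 ended without any single NSR array other than NSR light 4 (adjusted p of 0.060 to 0.12). That of Helz2 ended without NSR control 2, 3 or 4 or NSR light 1 (0.056 to 0.077). The exonuclease Isg20 was not called in either tissue.

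All 3 genes of nucleotide metabolism rose in the NSR and 0 in the RPE. Samhd1, which hydrolyses the deoxynucleotides that viral DNA synthesis needs, read 8.44, 8.36, 8.47 and 8.39 in control NSR and 9.89, 9.85, 9.70 and 9.82 after light. The groups are far apart relative to their spread, with a difference of 1.40 ± 0.07 (adjusted p = 5.4e-08). In the RPE its difference was 0.16 ± 0.10 (adjusted p = 0.39). Rsad2, or viperin, makes a nucleotide that ends viral RNA chains, and it rose by 1.37 ± 0.17 in the NSR. Its RPE difference of 0.31 ± 0.11 was not called (adjusted p = 0.088), and was 0.41 with adjusted p = 0.017 without RPE light 2. Cmpk2, the neighbouring gene and a nucleotide kinase, rose by 0.33 ± 0.09 from a dim control level, and the call ended without NSR control 2, 3 or 4 or NSR light 1 (adjusted p of 0.051 to 0.062). Cmpk2 was dim in the RPE of both groups of mice.

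Among the membrane proteins that block entry or release of virions, Ifitm3 had the largest change. It read 8.88, 8.74, 8.63 and 8.56 in control NSR and 11.14, 11.17, 11.26 and 11.04 after light, 2.45 ± 0.08 higher (5.46-fold, adjusted p = 5.2e-09). In the RPE it rose from 9.71, 10.37, 10.38 and 9.88 to 11.12, 11.21, 11.38 and 11.13, by 1.13 ± 0.15 (adjusted p = 0.00067). The 2 tissues then met, with light levels of 11.04 to 11.26 in the NSR and 11.12 to 11.38 in the RPE. Bst2, which holds budding virions at the cell surface, rose by 0.48 ± 0.11 in the NSR and differed by -0.11 ± 0.10 in the RPE (adjusted p = 0.55). Ifitm1 rose by 0.56 ± 0.08 in the NSR. Its RPE arrays read 7.60, 8.14, 7.83 and 8.15 in controls and 8.22, 9.66, 8.06 and 8.27 after light, and the difference of 0.62 ± 0.31 was not called. RPE light 2 stood apart at 9.66, and the same array had a median of 9.40 over 11 marker genes of cornea and ciliary body, against 6.30 to 7.05 on the other 7 RPE arrays. Without that array the Ifitm1 difference was 0.25 (adjusted p = 0.30). A dimmer cluster of Ifitm1 differed by 0.80 in the NSR and by 1.02 in the RPE, with RPE light 2 included. Ifitm2 was not called in either tissue by its brightest cluster (0.24 ± 0.08 in the NSR, adjusted p = 0.063; -0.15 ± 0.05 in the RPE), and averaging its 3 clusters gave 0.38 in the NSR with adjusted p = 0.0032.

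**Figure D3:**
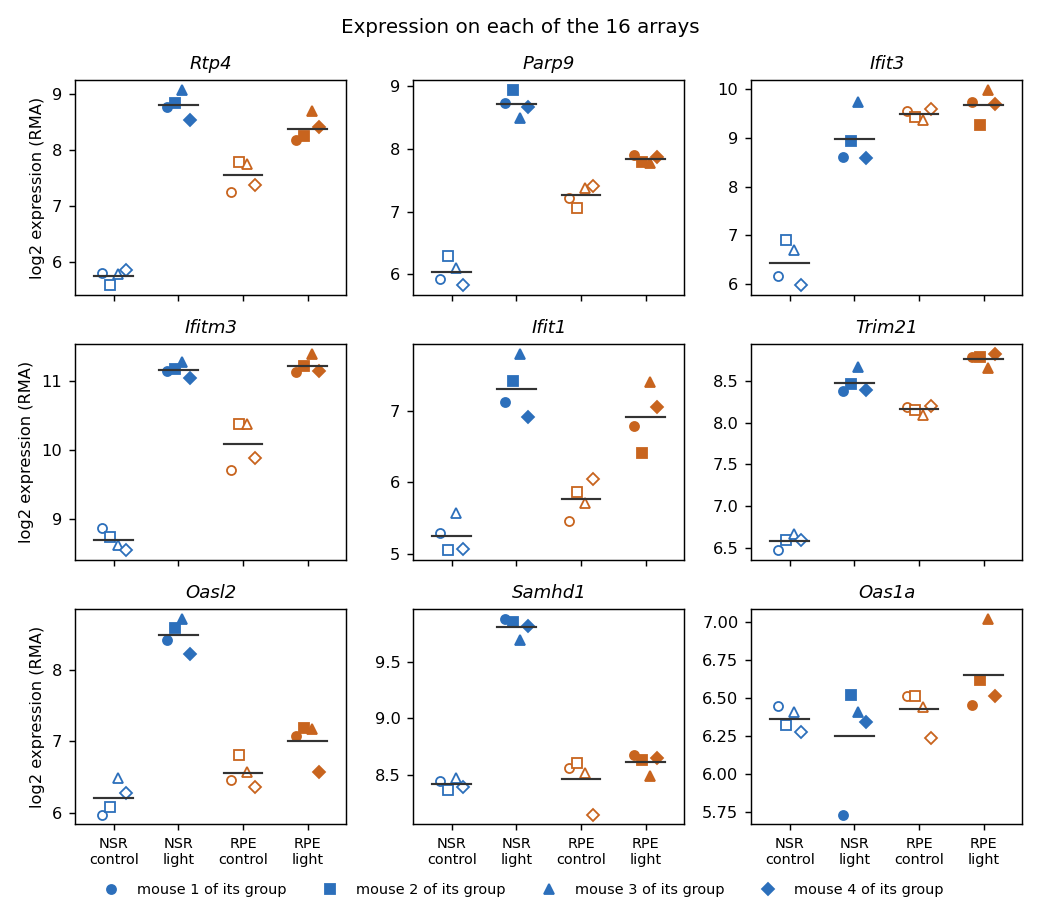
Log2 expression of 9 of the genes on all 16 arrays (NSR blue, RPE orange, control open, light filled; the symbol gives the mouse number within its group and the line the group mean), each panel on its own vertical scale. Samhd1 is near 9.8 in the light NSR alone, Ifitm3 meets near 11.2 in both tissues after light, Ifit3 is at 9.37 or above in the RPE of control mice, and the Oas1a groups overlap.

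The TRIM ubiquitin ligases Trim21, Trim25 and Trim30a all rose in the NSR. Trim21, which also binds antibody on virions inside the cell, read 6.47, 6.59, 6.66 and 6.59 in control NSR and 8.38, 8.47, 8.67 and 8.39 after light, a rise of 1.90 ± 0.08. In the RPE it read 8.18, 8.15, 8.10 and 8.20 and then 8.79, 8.79, 8.65 and 8.82, a rise of 0.61 ± 0.06 with tight groups that do not overlap (adjusted p = 0.00014). Trim25, the ligase linked to the RNA sensor RIG-I, rose by 1.53 ± 0.10 in the NSR and differed by 0.10 ± 0.08 in the RPE (adjusted p = 0.50). Trim30a rose by 0.86 ± 0.16 in the NSR and by 0.65 ± 0.15 in the RPE, and those responses were not shown to differ (-0.21 ± 0.24, adjusted p = 0.64).

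The ADP-ribosyltransferases were the one group in which all measured genes rose in both tissues. Parp14, Dtx3l and Parp9 lie next to each other, and DTX3L is the ubiquitin ligase that pairs with PARP9. Parp9 read 5.92, 6.30, 6.11 and 5.82 in control NSR and 8.72, 8.94, 8.49 and 8.67 after light, 2.67 ± 0.12 higher (6.36-fold, adjusted p = 2.7e-08). In the RPE it rose from 7.21, 7.06, 7.37 and 7.41 to 7.90, 7.79, 7.77 and 7.87, by 0.57 ± 0.08 (adjusted p = 0.0012). Dtx3l rose by 1.98 ± 0.08 and 0.48 ± 0.10, and Parp14 by 1.96 ± 0.08 and 0.52 ± 0.12, in the NSR and RPE. Parp12, on another chromosome and without a core in the printed promoter, rose by 2.43 ± 0.09 in the NSR. Its RPE rise of 0.34 ± 0.10 was near the threshold (adjusted p = 0.040) and was lost without any of RPE control 1, 2 or 3 or of the RPE light arrays, with adjusted p of 0.052 to 0.10.

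The largest response of all was that of Rtp4, a chaperone for membrane receptors. It read 5.80, 5.58, 5.78 and 5.86 in control NSR and 8.76, 8.83, 9.08 and 8.53 after light, 3.04 ± 0.11 higher (8.25-fold, adjusted p = 6.4e-09). Its RPE levels rose from 7.25, 7.79, 7.76 and 7.37 to 8.17, 8.24, 8.69 and 8.40, by 0.83 ± 0.15 (1.78-fold, adjusted p = 0.0032). The control groups of the tissues do not overlap for this gene, and the light groups do. Xaf1, a partner of the apoptosis inhibitor XIAP, rose by 0.83 ± 0.12 in the NSR and 0.65 ± 0.15 in the RPE. The galectin Lgals9 rose by 0.36 ± 0.11 in the NSR, a call lost without any single NSR array other than NSR control 2 and NSR light 4 (adjusted p of 0.059 to 0.11), and the galectin-binding Lgals3bp by 1.00 ± 0.15. In the RPE Lgals3bp rose by 0.38 ± 0.07. Ifi27, Ifi35 and the torsin Tor3a rose in the NSR by 0.79, 0.57 and 0.60 and were not called in the RPE. Sp100, a protein of nuclear bodies, differed by 0.0045 ± 0.10 in the NSR and -0.0056 ± 0.11 in the RPE (adjusted p = 0.98 and 0.99).

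The responses of the tissues were compared directly as the RPE difference minus the NSR difference, over all 16 arrays. For 21 of the 35 genes the response was lower in the RPE and for 0 it was higher, where 8.05% of all genes were lower and 5.16% higher. Without RPE control 2 and RPE light 2 the count was 18 lower and 0 higher, and 16 lower without RPE light 1 as well. The median was -0.60 over the 35 genes and 0.02 over all genes. The largest gaps were in Ifit3 (-2.36 ± 0.33), Rtp4 (-2.21 ± 0.19), Parp9 (-2.10 ± 0.15), Parp12 (-2.09 ± 0.14), Oasl2 (-1.84 ± 0.21) and Usp18 (-1.77 ± 0.13), with adjusted p of 8.2e-05 or below. Of the 21, 10 rose in both tissues, 10 were called in the NSR and not in the RPE, and Ifitm2 was called in neither. For 6 genes called in the NSR and not in the RPE (Znfx1, Helz2, Cmpk2, Ifitm1, Lgals9, Tor3a) the responses were not shown to differ. The gap in Ifit1, -0.92 ± 0.29 with adjusted p = 0.043, was lost without NSR control 1, 2 or 4, NSR light 2 or 3, RPE control 2, 3 or 4, or RPE light 1 or 2 (adjusted p of 0.061 to 0.089). The smaller gaps in Lgals3bp (-0.62 ± 0.18) and Ifi35 (-0.49 ± 0.15) were lost as well, for Lgals3bp without NSR control 2 or RPE control 3 and for Ifi35 without NSR control 3, NSR light 3, RPE control 1 or 3, or RPE light 1, 2 or 4.

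Control mice already differed between the tissues. In control mice 23 of the 35 genes were higher in the RPE than in the NSR and 0 were lower, where 30.8% of all genes were higher and 24.2% lower. The median difference was 0.52 over the 35 genes and 0.04 over all genes. The RPE samples differed in markers of other cells as well. Of 12 fibroblast and pericyte genes 10 were higher in the RPE of control mice and 2 lower. For endothelium 5 of 12 were higher and 3 lower, and for microglia and macrophages 11 of 17 were higher and 0 lower. The part of such cells in these differences was not tested. Ifit3 was higher in the RPE by 3.07 ± 0.23 (8.37-fold), Ifitm2 by 2.89 ± 0.06, Lgals3bp by 2.86 ± 0.12, Ifi27 by 2.83 ± 0.10, Tor3a by 1.89 ± 0.11 and Rtp4 by 1.79 ± 0.14. Ifitm2 read 7.95, 7.70, 7.92 and 7.89 in control NSR. Its RPE levels were 10.76, 10.80, 10.74 and 10.71 in controls and 10.63, 10.59, 10.59 and 10.60 after light. Of the smaller differences, that of Ifit1 (0.52 ± 0.20) was lost without NSR control 1, 2 or 4 or RPE control 2, 3 or 4, and that of Oasl1 (0.18 ± 0.07) without NSR control 3 or 4 or RPE control 1 or 3. The 12 genes with no called difference in control mice were Ifit2, Oas1a, Oas2, Oas3, Oasl2, Isg20, Helz2, Rsad2, Cmpk2, Samhd1, Parp14 and Xaf1. The array medians of the 2 tissues differ, and centring each array on its median moved the median of all genes to 0.19, and quantile normalization to 0.15. The share of higher calls among all genes called then went from 56.0% to 72.2% and 66.4%, and the members' median to 0.67 and 0.68. After centring 32 of the 35 genes were called higher and 0 lower, where 48.3% of all genes were higher.

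After light the order of the tissues was mixed. Of the 35 genes 14 were higher in the RPE and 12 lower, where 34.4% of all genes were higher and 23.6% lower, and the median was 0.06 beside 0.08 over all genes. In both comparisons 12 genes were higher in the RPE, among them Ifitm2, Lgals3bp, Ifi27, Tor3a, Trim21 and Ifit3. Ifit3 came down to 0.71 ± 0.23, a call lost without NSR light 1, NSR light 4 or RPE light 3 (adjusted p of 0.051 to 0.055). The order turned for 6 genes that were higher in the RPE of control mice and lower in the RPE of light-exposed mice, namely Usp18, Trim25, Parp9, Parp12, Dtx3l and Rtp4. Parp9 went from 1.23 ± 0.11 above the NSR to 0.87 ± 0.11 below it (log2 difference -0.87). Usp18 went from 0.29 ± 0.09 to -1.49 ± 0.09. For Rtp4 the later difference of -0.42 ± 0.14 was not called after centring (-0.30, adjusted p = 0.062), nor without NSR light 3 (-0.33, adjusted p = 0.057). A further 6 genes with no called difference in controls were lower in the RPE after light, from Oasl2 at -1.49 to Cmpk2 at -0.34, and Ifit2, Rsad2, Samhd1 and Parp14 between them. Herc6, Ifit1, Ifitm3, Bst2 and Lgals9 went from higher in the RPE to no called difference. Oas1a and Oas3 were called higher in the RPE only after light, at 0.40 ± 0.15 and 0.24 ± 0.09, and neither held without some single arrays. Oas1a was 0.23 without NSR light 1 and 0.28 without RPE light 3 (adjusted p = 0.10 each), and Oas3 was lost without NSR light 2 or 4 or RPE light 3 or 4 (adjusted p of 0.080 to 0.12). For all genes, centring moved the median from 0.08 to 0.20 and the share of higher calls from 59.3% to 73.0%, and quantile normalization moved them to 0.17 and 67.7%.

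**Figure D4:**
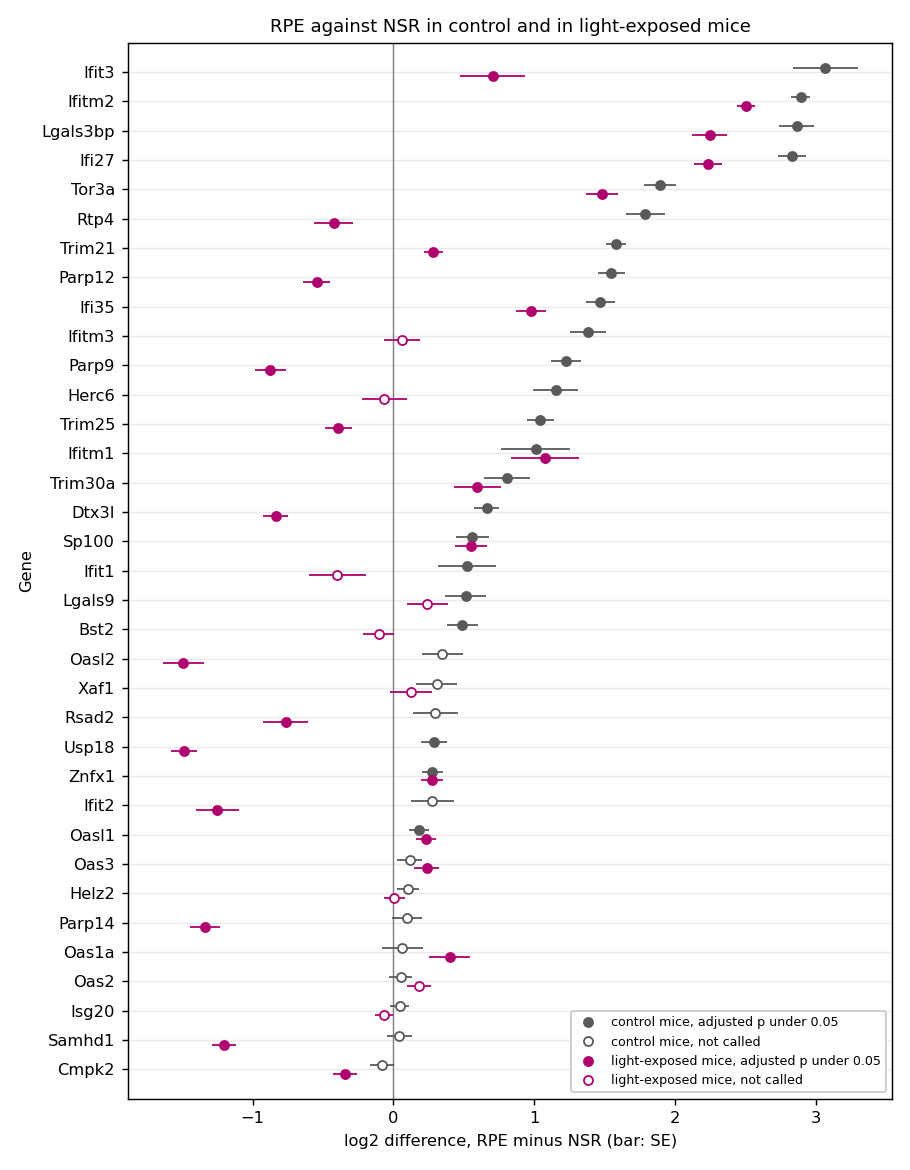
RPE minus NSR difference of the 35 genes in control mice (grey) and in light-exposed mice (magenta), on the log2 scale with standard errors, ordered by the control value; filled points passed an adjusted p of 0.05. All called control points lie to the right of 0, up to Ifit3 at 3.07, and 12 called light points lie to its left, down to Oasl2 and Usp18 at -1.49.

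The genes of the interferon pathway itself were read to place these targets. Across all genes, 8.87% rose with light and 6.24% fell in the NSR, and 9.08% rose and 8.53% fell in the RPE. Of 10 measured interferon genes 0 rose in either tissue, and 1, Ifnz, was lower in the NSR (-0.32 ± 0.08). A list of 10 genes is too short for a count of 0 or 1 to stand apart from those shares. Ifnb1, the beta interferon, differed by -0.15 ± 0.07 in the NSR and 0.12 ± 0.10 in the RPE, and was dim in all 4 groups, as were Ifna4, Ifne and Ifnk, so that a change at low level was not measurable in them. Of 9 receptor and kinase genes 4 rose in each tissue. Ifnar2, a chain of the type I receptor, rose by 1.27 ± 0.07 in the NSR, from 7.12 ± 0.08 to 8.39 ± 0.12 (SD, n = 4 each), and differed by 0.17 ± 0.06 in the RPE, where it stood at 9.92 ± 0.03 in controls. Il10rb, a chain of the lambda and interleukin-10 receptors, rose by 0.74 ± 0.10 in the NSR and 0.86 ± 0.19 in the RPE. Ifngr2, a chain of the gamma receptor, rose by 0.69 ± 0.10 in the RPE and differed by 0.19 ± 0.08 in the NSR.

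Of 9 transcription factors of the pathway 7 rose in the NSR and 5 in the RPE, where 8.87% and 9.08% of all genes rose. Stat2 rose in the NSR from 7.59 ± 0.13 to 9.99 ± 0.08 and differed in the RPE between 7.57 ± 0.26 and 7.79 ± 0.16 (SD, n = 4 each), differences of 2.40 ± 0.08 and 0.22 ± 0.13 (SE; adjusted p = 3.7e-09 and 0.32). Irf7, the factor that amplifies interferon production, rose by 2.38 ± 0.10 and 0.49 ± 0.07, and Irf9 by 2.30 ± 0.12 and 0.38 ± 0.11. The responses of Stat2, Irf7 and Irf9 were lower in the RPE, with log2 differences of -2.17, -1.89 and -1.92 between the tissues. Stat3 and Irf1 were closer between the tissues, at 1.96 and 1.46 for Stat3 and 1.21 and 1.03 for Irf1, and for Irf1 the difference was not called (-0.18 ± 0.18, adjusted p = 0.59). In the NSR 3 of 8 signalling inhibitors rose and 1 was lower. In the RPE 1 rose, a count near the share of all genes. That one, the phosphatase gene Ptpn2, rose in the RPE from 7.92 ± 0.12 to 10.17 ± 0.21 (SD, n = 4 each), by 2.25 ± 0.11, and in the NSR by 0.56 ± 0.07, and the RPE response was higher by 1.69 ± 0.13 (adjusted p = 2.1e-07). Ptpn1 rose by 1.01 ± 0.09 in the NSR and differed by 0.20 ± 0.10 in the RPE.

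**Figure D5:**
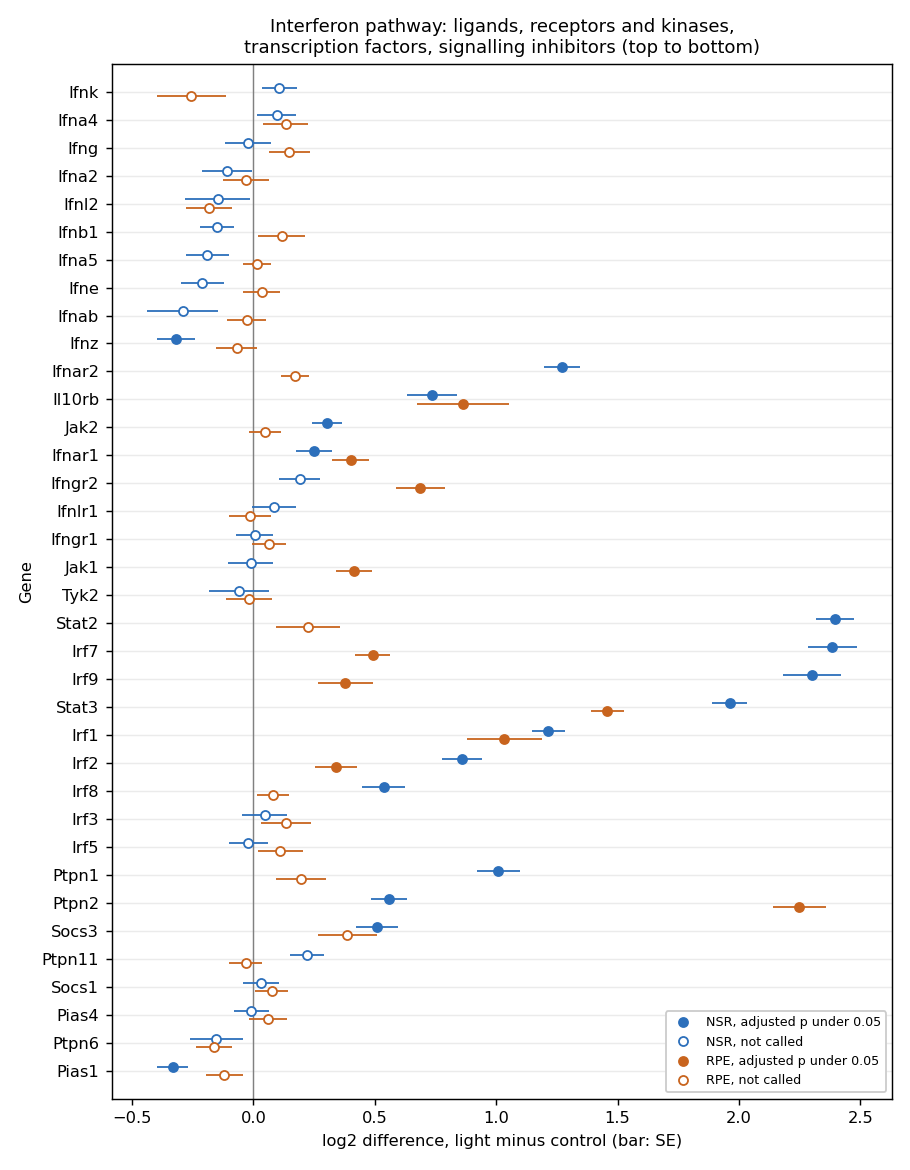
Light response of the measured genes of 4 interferon pathway lists in the NSR (blue) and RPE (orange), as log2 differences with standard errors; filled points passed an adjusted p of 0.05. The interferon genes lie near 0, Stat2, Irf7 and Irf9 are at 2.30 to 2.40 in the NSR and at 0.22 to 0.49 in the RPE, and Ptpn2 is the highest RPE point at 2.25.

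Marker lists of the retinal cells themselves moved with light too. The shares of all genes called with light were 8.87% higher and 6.24% lower in the NSR, and 9.08% and 8.53% in the RPE. In the NSR 10 of 10 rod genes were lower, with a median difference of -0.60, and the list median went from 12.14 to 12.20 on the control arrays to 11.47 to 11.70 on the light arrays. Of 12 genes of Mueller glia and astrocytes 7 were lower in the NSR, 3 of them by at least 2-fold, and the lowest difference was -1.74. The 3 higher ones were Vim (1.67), Gfap (1.45) and Clu (0.68). The median difference over the list was -0.43, and the list median went from a mean of 9.43 to 8.18. In the RPE 7 of 12 RPE genes were lower, with a median difference of -0.32, and the list median went from a mean of 12.35 to 11.78. Of the glial list 2 genes were higher and 3 lower in the RPE, with a median difference of -0.05, and 0 of 10 rod genes were called. The median level of the glial list was 8.95 to 9.04 in RPE controls and 9.44 to 9.74 after light. Neither shift of the middle level of the glial list, in the NSR or in the RPE, is the change of a typical gene of the list. Of 11 cornea and ciliary body genes 4 were lower in the RPE and 1 was higher in the NSR. The lists for endothelium, lens, and fibroblasts and pericytes hold 12 genes each. At most 3 of each were called with light in either tissue, near the shares of all genes.

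Markers of immune cells were read beside these changes as well. Of 17 microglia and macrophage genes 5 rose in the light-exposed NSR (Cd68 by 1.80, Tyrobp by 1.05, C1qc by 0.56, Adgre1 by 0.30, C1qb by 0.26) and 1 was lower. The differences of the 17 ran from -0.42 to 1.80, with a median of 0.05. The median of the list was 5.97 to 6.04 on the control NSR arrays and 5.93 to 6.13 on the light arrays, and Cx3cr1, Aif1, Ptprc and Csf1r differed by 0.01 to 0.05. In the RPE 2 of the 17 rose, Cd68 by 2.76 and Itgam by 0.54, and 1 was lower, Csf1r (-1.14), with list medians of 6.82 to 7.04 in controls and 6.75 to 7.03 after light. In control mice 11 of the 17 were higher in the RPE than in the NSR and 0 lower, where 30.8% of all genes were higher and 24.2% lower. Of 11 lymphocyte genes 0 were called with light in either tissue, and of 12 neutrophil genes 2 rose in the RPE and 1 was lower in the NSR. Among all genes 8.87% rose and 6.24% fell with light in the NSR, and 9.08% and 8.53% in the RPE. The lymphocyte and neutrophil counts, and those of microglia and macrophages in the RPE, are near these shares. The part of these cells, and of the retinal cells above, in the results was not tested.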

How the data were processed

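The deposited table holds log2 expression values of 35556 transcript clusters on 16 arrays, which the submitters' processing notes trace to RMA and to Partek 6.6; the log2 scale was read from their range (2.20 to 13.84). Clusters with 1 gene symbol in the platform annotation were kept and the brightest per gene used (19938 genes). Light against control was fitted within each tissue on 8 arrays, and the tissue comparisons and the difference of responses on all 16, with limma 3.58.1 (R 4.3.3) and Benjamini-Hochberg adjustment over all genes, called at adjusted p under 0.05. The procedure was tested on simulated data. NSR and RPE of a mouse are paired by the labels' mouse identifier; deviations from group means of the same mouse correlated at -0.011 to 0.053 over 8 mice. Alternatives covered scaling, filtering, the variance prior, array weights, cluster choice, blocks and leaving out arrays. Genes named are the members, and the 2 called genes of largest change per pathway list with others of the pathway chosen after their values were seen. The members and lists were chosen with earlier results of these data known. No depth applies to arrays; their number limits the precision. Promoters were searched in RefSeq sequence with Python 3.11.15.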

Additional observations from a re-analysis of the deposited data

Results flagged for a closer look

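Among the 140 combinations of a gene and a group of 4 arrays, 6 had 1 array farther from the others than Dixon's test allows, where chance alone marks about 1 in 20. Herc6 was 8.00 in RPE light 4, beside 8.38 to 8.40 on the other 3 RPE light arrays. Ifitm1 was 9.66 in RPE light 2, beside 8.06 to 8.27. Lgals9 was 7.19 in NSR control 2, beside 6.81 to 6.86, and 7.55 in NSR light 3, beside 7.18 to 7.22. Lgals3bp was 7.54 in NSR light 3, beside 6.84 to 6.93. Ifi27 was 6.48 in NSR control 1, beside 6.89 to 6.92.

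The light response differed between the tissues for 21 genes (limma, RPE response minus NSR response over 16 arrays, adjusted p under 0.05), each lower in the RPE. The log2 differences of response were Ifit3 -2.36, Rtp4 -2.21, Parp9 -2.10, Parp12 -2.09, Oasl2 -1.84, Usp18 -1.77, Ifit2 -1.53, Dtx3l -1.50, Parp14 -1.44, Trim25 -1.43, Ifitm3 -1.32, Trim21 -1.29, Samhd1 -1.25, Herc6 -1.22, Rsad2 -1.06, Ifit1 -0.92, Lgals3bp -0.62, Ifi27 -0.60, Bst2 -0.60, Ifi35 -0.49 and Ifitm2 -0.39.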

How the results depend on the processing

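The 4 mice per group and the absence of a detection call limit what can be read from dim genes. Requiring at least 2-fold left 17 genes higher with light in the NSR and 2 in the RPE, 14 higher in the RPE of control mice, and 5 higher and 5 lower in the RPE of light-exposed mice. A trended robust prior called 1 gene lower in the RPE, Ifitm2 (-0.15, adjusted p = 0.015), and the cause was not tested. Leaving out 1 array at a time gave 24 to 28 genes higher in the NSR, 11 to 12 in the RPE, 18 to 22 lower by the difference of responses, 21 to 24 higher in the RPE of control mice, and 11 to 15 higher and 11 to 13 lower in the RPE of light-exposed mice. With the mouse as replicate block 22 genes were lower by the difference of responses and 24 higher in the RPE of control mice; the replicate number as a block, which pairs no animals, gave 27 in the NSR and 13 in the RPE. Other than at 2-fold, 23 of the 28 NSR calls held under all 17 alternatives run, 9 of 12 in the RPE under 19, and 16 of 21 differences under 27, counting 1 chosen after seeing the data, which left out RPE control 2 and RPE light 2; the calls lost were Znfx1, Helz2, Cmpk2, Lgals9 and Ifitm1 in the NSR, Parp12, Herc6 and Lgals3bp in the RPE, and Ifit1, Ifi35, Lgals3bp, Bst2 and Ifi27 among the differences. No called value changed sign in these alternatives.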

Other observations

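The light-exposed mouse numbered 3 had the highest level of many of these genes in both of its tissues. In the NSR 24 of the 35 genes were highest on the array of light mouse 3, where 31.9% of all genes were highest on that array. In the RPE 22 of the 35 were highest on the array of the same mouse, where 28.9% of all genes were. Both held for 16 of the 35 genes, and for 9.4% of all genes. Ifit3 read 9.73 in its NSR beside 8.59 to 8.94 in the other light-exposed mice, and 10.00 in its RPE beside 9.27 to 9.73. Rsad2 read 7.68 in its NSR beside 6.68 to 7.27, and 6.54 in its RPE beside 6.08 to 6.53. Parp9 and Samhd1 did not follow, with their lowest light level in both tissues on the arrays of this mouse (8.49 and 7.77 for Parp9, 9.70 and 8.49 for Samhd1). The genes of 1 mouse are not independent, the mouse was picked after the values were seen, and no test was made.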
